A study of Mus musculus with 12 samples.

Results

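A group of 10 transcription factors that set the balance between effector and memory fates of CD8+ T cells were followed across a knockdown of *Creb1* and a treatment with *trans*-vaccenic acid (TVA), a long-chain *trans* fatty acid. They were chosen by name (*Tbx21*, *Eomes*, *Prdm1*, *Bcl6*, *Id2*, *Id3*, *Tcf7*, *Lef1*, *Bach2* and *Zeb2*) and are 10 of the 54532 genes measured. Of these, 8 had a mean FPKM (reads scaled by gene length and library size) of at least 1 over the 12 libraries and could be tested among 11550 genes, whereas *Prdm1* and *Zeb2* fell below that level. The libraries came from primary CD8+ T cells of wild-type mice. After activation the cells received a non-targeting siRNA (siNTC) or an siRNA against *Creb1* (siCreb1) and were then kept with DMSO or with 20 μM TVA for 24 h. There were 3 libraries in each of the 4 groups (siNTC, siNTC plus TVA, siCreb1 and siCreb1 plus TVA), so that every group carried an siRNA and none was untransfected. Neither the labels nor the methods say whether the 3 libraries of a group came from separate mice or cultures, so p-values measure the spread between these libraries, which may be technical. In bulk RNA, fewer cells that express a gene and less RNA of that gene per cell cannot be told apart.

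After activation, a naive CD8+ T cell can give rise to short-lived effector cells or to long-lived memory cells. TCF-1 (encoded by *Tcf7*) and LEF-1 (*Lef1*), 2 related DNA-binding proteins of the Wnt pathway, mark naive and memory cells, and ID3, BCL-6 and BACH2 are also associated with memory. T-bet (*Tbx21*), ID2, BLIMP-1 (*Prdm1*) and ZEB2 are associated with effector differentiation, and EOMES, a T-box relative of T-bet, takes part in both. CREB, the product of *Creb1*, is a transcription factor activated by cyclic AMP signalling that binds the cyclic AMP response element, or CRE.

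Because CREB binds DNA at CRE sequences, the RefSeq promoter windows of the 10 factors (GRCm38.p6, from 250 bases before to 50 bases after a transcription start) were searched for the full CRE, TGACGTCA, and for its half-site, TGACG, on both strands. All 10 genes had a window, and there were 18 windows in all, as some genes have several starts. No window held the full CRE, which was in 1.79% of all 32841 windows. The half-site, which every full CRE contains, was in the windows of 4 factors (*Prdm1*, *Bcl6*, *Id3* and *Zeb2*) and in 5 of 18 windows, against 20.8% of all windows and 23.0% of 27018 genes. These 5 include a pair of overlapping *Zeb2* windows that share 1 half-site. *Tcf7*, *Id2* and *Lef1* held no half-site in any window. A window of *Bcl6* and that of *Id3* are shown for the place of their half-sites. A window of *Tcf7* and that of *Id2*, which are among the factors called below, are shown as windows that held none. *Bcl6* and *Tcf7* have 2 windows each, of which the more upstream is shown. Sequence outside the windows was not searched, so a window without a half-site says nothing about other starts of the same gene. Capitals mark a half-site in either orientation, and each window is written 5′ to 3′ on the strand of its gene.
*Bcl6* (chr16:23988803-23989102, minus strand): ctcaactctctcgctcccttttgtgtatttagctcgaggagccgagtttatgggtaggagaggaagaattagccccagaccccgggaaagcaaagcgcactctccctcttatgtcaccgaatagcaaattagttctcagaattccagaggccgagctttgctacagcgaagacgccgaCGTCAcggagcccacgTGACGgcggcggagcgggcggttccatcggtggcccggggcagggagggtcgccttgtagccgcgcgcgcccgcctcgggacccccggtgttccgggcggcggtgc
*Id3* (chr4:136143572-136143871, plus strand): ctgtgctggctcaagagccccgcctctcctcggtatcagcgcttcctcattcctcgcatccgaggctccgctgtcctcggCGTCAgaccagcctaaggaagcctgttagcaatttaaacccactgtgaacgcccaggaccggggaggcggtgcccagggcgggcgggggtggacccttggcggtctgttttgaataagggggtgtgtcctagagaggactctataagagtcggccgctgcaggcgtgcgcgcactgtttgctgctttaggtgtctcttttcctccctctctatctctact
*Tcf7* (chr11:52282965-52283264, minus strand): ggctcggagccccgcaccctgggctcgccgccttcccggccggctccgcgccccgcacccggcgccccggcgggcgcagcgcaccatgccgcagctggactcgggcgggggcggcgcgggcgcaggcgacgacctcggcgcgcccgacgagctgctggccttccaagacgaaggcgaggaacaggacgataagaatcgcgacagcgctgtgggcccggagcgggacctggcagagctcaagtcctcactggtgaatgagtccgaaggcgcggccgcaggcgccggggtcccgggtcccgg
*Id2* (chr12:25096043-25096342, minus strand): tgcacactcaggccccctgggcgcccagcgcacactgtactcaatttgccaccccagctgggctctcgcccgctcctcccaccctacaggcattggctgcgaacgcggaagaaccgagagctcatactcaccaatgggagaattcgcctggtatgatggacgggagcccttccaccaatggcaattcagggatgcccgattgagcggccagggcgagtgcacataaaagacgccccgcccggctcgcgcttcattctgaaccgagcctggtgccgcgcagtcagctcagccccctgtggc
In *Bcl6* the half-sites began 72 and 56 bases before the start, in opposite orientations, and in *Id3* the half-site began 170 bases before it. A match to these letters is a description of the sequence and does not show that CREB binds there.

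*Creb1*, the gene targeted by the siRNA, stood at 10.3 to 10.98 FPKM in siNTC libraries and 11.03 to 12.4 in siNTC plus TVA libraries. It was at 1.19, 1.29 and 1.77 FPKM in the siCreb1 libraries and at 1.81, 1.67 and 1.17 in the siCreb1 plus TVA libraries. The knockdown groups did not overlap the siNTC groups, and the log2 fold change was -2.27 ± 0.11 (SE) without TVA (limma, Benjamini-Hochberg adjusted p = 2.2e-06) and -2.34 ± 0.11 with TVA (adjusted p = 2.4e-06). The libraries held 16660234 to 24602484 reads as recovered from the FPKM values. The cells expressed *Cd8a* (416 to 450 FPKM) and *Cd8b1* (822 to 941 FPKM), whereas *Cd4* was at 0.921 to 1.75 FPKM. With siCreb1, *Cd8a* was called higher without and with TVA (log2 fold changes 0.089 and 0.087) and *Cd8b1* lower (-0.16 and -0.14). Of 5 CD4+ and regulatory T cell markers 4 had a mean of at least 1 FPKM, including *Foxp3* (1.87 to 2.99 FPKM). So did 4 of 5 NK cell markers, such as *Tyrobp* (2.31 to 4.79 FPKM). Of 8 B cell markers 2 did, *Cd79b* (7.77 to 12.3 FPKM) and *Cd79a* (0.945 to 2.61). *Ctla4*, which is on the list of CD4+ and regulatory T cells and is also made by activated CD8+ T cells, was at 36.3 to 46.8 FPKM and was called lower with siCreb1 without TVA (log2 fold change -0.27). Of 10 myeloid markers 3 had a mean of at least 1 FPKM, *Cst3* (34.1 to 42.9 FPKM), *Fcer1g* (5.84 to 9.30) and *Lyz2* (4.61 to 8.20), whereas *Csf1r* of macrophages was at no more than 0.273. The list summed to 55.3 to 58.4 FPKM in siNTC libraries, 52.3 to 55.2 with TVA, 49.0 to 53.1 with siCreb1 and 50.4 to 56.2 with both. *Cst3* was called lower with siCreb1 without and with TVA (-0.13 and -0.18), and *Lyz2* was called higher with siCreb1 under TVA (0.40, adjusted p = 0.048, limma). The part of these markers in the results below was not tested.

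The 10 factors spanned more than 3 orders of FPKM. *Tcf7* averaged 655 FPKM over all libraries (628 to 712). It ranked first in every library among the 1469 genes with a transcription factor family in the files, and between 64 and 70 among all genes. *Id2* (mean 47.2 FPKM) and *Lef1* (45.0 FPKM) came next and were not in a fixed order, since *Id2* was the higher in 10 of 12 libraries. They were followed by *Eomes* (29.6 FPKM), *Id3* (23.0 FPKM), *Tbx21* (16.6 FPKM), *Bach2* (12.3 FPKM) and *Bcl6* (1.41 FPKM), each above the next in 12 of 12 libraries. *Zeb2* (0.344 FPKM) and *Prdm1* (0.243 FPKM) were lowest, and *Zeb2* was above *Prdm1* in 9 of 12 libraries. These activated cells therefore held far more *Tcf7* RNA per length than RNA of any of the other 9 factors, and *Prdm1* rested on only 11 to 45 reads per library.

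**Figure D1:**
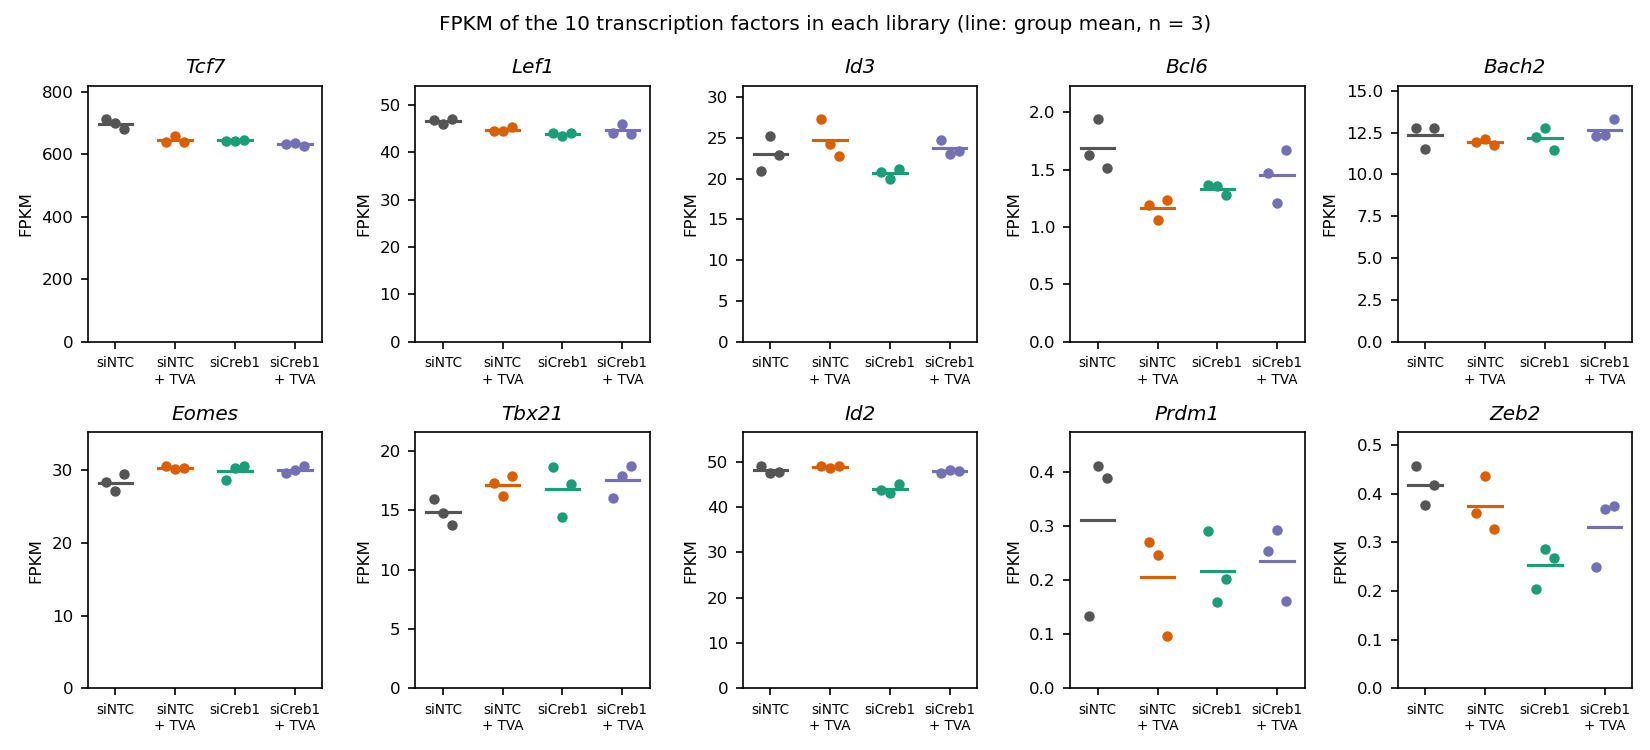
FPKM of each of the 10 factors in each library (vertical axes, from 0, on a separate scale for each gene) by group (horizontal axes), with points for libraries and lines for means of 3. *Tcf7* stood between 682 and 712 FPKM in siNTC libraries and between 628 and 659 in all other libraries, and *Id2* was lowest in the siCreb1 libraries (43.0 to 45.2 FPKM).

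The spread between libraries also differed among the factors. *Lef1* varied least, with its highest library 1.08 times its lowest, and *Tcf7*, *Eomes*, *Id2* and *Bach2* varied by 1.13, 1.13, 1.14 and 1.16 times. *Tbx21* and *Id3* varied by 1.36 and 1.37 times and *Bcl6* by 1.83 times. In limma on log2(FPKM + 1), the differences of the factors that passed in the pairwise comparisons below were falls of 5.7% to 8.7% in mean FPKM. Larger differences, falls of *Bcl6* and *Zeb2* and a rise of 9.0% of *Id2* with TVA in siCreb1 cells, passed only in alternative fits.

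The first comparison asked what TVA does in cells with intact *Creb1*. *Tcf7*, the factor of naive and memory cells, was lower with TVA, and none of the other 7 tested factors passed the test, so that 1 of 8 was called against 7.38% of all tested genes (4.49% called higher and 2.88% lower). *Tcf7* was at 712, 700 and 682 FPKM in siNTC libraries and at 638, 659 and 639 with TVA. All 3 treated libraries lay below all 3 controls, a fall of 7.5% in mean FPKM (log2 fold change -0.11 ± 0.02 (SE), adjusted p = 0.0089, limma). This call was lost when the libraries were quantile normalized (log2 fold change -0.064, adjusted p = 0.16), when all genes above 0 were tested (adjusted p = 0.056) or when only the 6 libraries compared entered the fit (adjusted p = 0.11). It held with limma-voom on recovered reads (log2 fold change -0.10, adjusted p = 0.0002) and with any 1 library left out (adjusted p of at most 0.042).

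Other highly expressed genes moved with *Tcf7*. Of the 153 genes with a mean of at least 300 FPKM, 71.9% were lower with TVA in siNTC cells, with a median log2 fold change of -0.043, against -0.0056 over all tested genes. The 10 T cell markers summed to 3575 to 3618 FPKM in siNTC libraries and to 3251 to 3429 with TVA, 9 of them being lower in the mean log2 level and none called. Per 100 FPKM of these markers, *Tcf7* was at 19.4 ± 0.5 FPKM (SD, n = 3) in siNTC cells, 19.3 ± 0.9 with TVA, 19.8 ± 0.1 with siCreb1 and 20.1 ± 0.6 with both, so that on this scale each of the other groups overlapped the siNTC group. The part of this shift of abundant genes in the lower *Tcf7* was not tested.

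*Bcl6*, a repressor that opposes BLIMP-1, showed the largest difference among the 8 factors with TVA but did not pass the test. It was at 1.63, 1.94 and 1.51 FPKM in siNTC libraries and at 1.20, 1.06 and 1.23 with TVA. The groups did not overlap and the mean with TVA was 0.686 times that without, at a log2 fold change of -0.31 ± 0.09 (SE) on log2(FPKM + 1), a scale that understates changes of low genes (adjusted p = 0.067). These values rested on 118 to 226 reads per library. With limma-voom on recovered reads the log2 fold change was -0.50 (adjusted p = 0.026, or 0.10 when all genes above 0 were tested), and without a mean-variance trend the adjusted p was 0.036.

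*Tbx21* was at 16.0, 14.7 and 13.8 FPKM in siNTC libraries and at 17.3, 16.2 and 17.9 with TVA. The treated libraries lay above the controls, yet the difference did not pass the test (log2 fold change 0.20 ± 0.09 (SE), adjusted p = 0.23). *Tbx21* and *Bcl6* were both on the list of genes that the study selected on these same libraries for changing only in siNTC plus TVA cells, so their directions here are not independent evidence.

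*Eomes* was at 28.3, 27.1 and 29.5 FPKM in siNTC libraries and at 30.6, 30.1 and 30.3 with TVA (log2 fold change 0.10 ± 0.03 (SE), adjusted p = 0.13). *Lef1* was at 46.8, 45.9 and 47.0 FPKM without and 44.5, 44.6 and 45.3 with TVA (log2 fold change -0.055 ± 0.023 (SE), adjusted p = 0.21). For both genes the groups did not overlap. In all, 5 of 8 factors had groups that did not overlap, as did 23.9% of all tested genes. *Id2*, *Id3* and *Bach2* overlapped between the groups, with log2 fold changes of 0.022, 0.10 and -0.046.

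The second comparison asked what TVA does after *Creb1* knockdown. No factor was called in limma, where 0.537% of all tested genes were (0.121% higher and 0.416% lower), and 2 factors had an unadjusted p under 0.05. The nearest was *Id2*, an inhibitor of E-protein transcription factors that accompanies effector differentiation. It stood at 43.7, 43.0 and 45.2 FPKM in siCreb1 libraries and at 47.6, 48.3 and 47.9 with TVA, without overlap (log2 fold change 0.12 ± 0.02 (SE), adjusted p = 0.056). It was called among genes of at least 5 FPKM (adjusted p = 0.04995), with limma-voom on recovered reads (adjusted p = 0.044) and without siNTC replicate 1 or siCreb1 replicate 3 (lowest adjusted p = 0.045), and had an adjusted p of 0.28 after rescaling to TPM. *Id3*, its relative in memory cells, was at 20.8, 19.96 and 21.2 FPKM without and 24.8, 23.0 and 23.4 with TVA, also without overlap (log2 fold change 0.19 ± 0.07 (SE), adjusted p = 0.42). Thus both ID genes stood higher with TVA in every siCreb1 library, but neither passed the test.

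*Tcf7* differed little by TVA after knockdown, at 644, 643 and 647 FPKM without and 633, 636 and 628 with TVA (log2 fold change -0.028, 95% interval -0.075 to 0.019, adjusted p = 0.74). *Bcl6* overlapped between the groups, at 1.36, 1.36 and 1.28 FPKM without and 1.47, 1.21 and 1.67 with TVA (log2 fold change 0.067, 95% interval -0.14 to 0.27). *Tbx21*, *Lef1*, *Eomes* and *Bach2* overlapped as well, with log2 fold changes between 0.011 and 0.067. Of 8 factors, 3 had groups that did not overlap, against 17.1% of all tested genes.

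**Figure D2:**
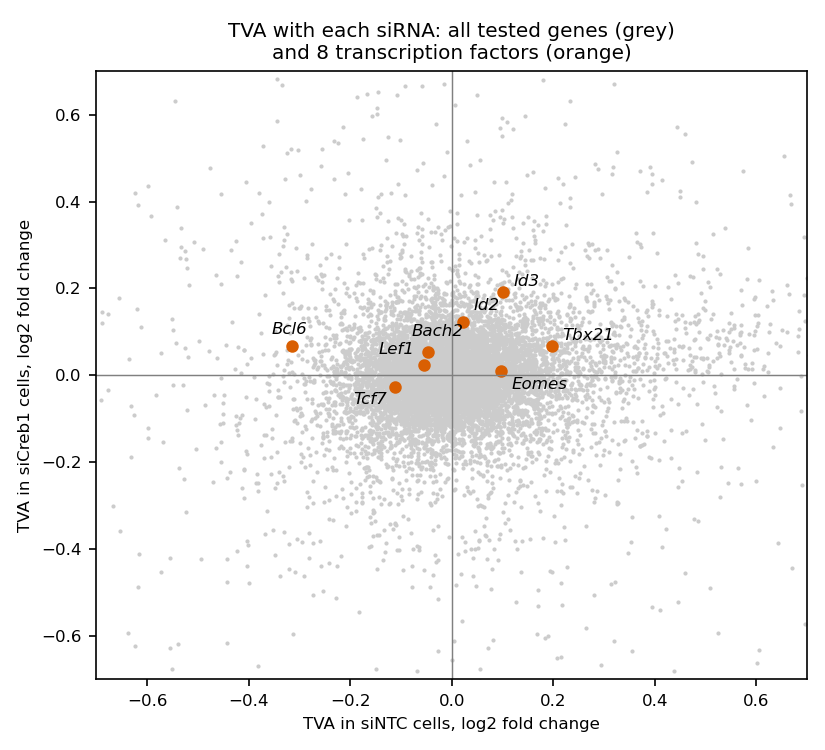
Log2 fold change between TVA and DMSO in siNTC cells (horizontal axis) and in siCreb1 cells (vertical axis) for all tested genes (grey) and the 8 tested factors (orange), with 201 genes outside the axes. *Bcl6* lay at -0.31 and 0.067 and *Tcf7* at -0.11 and -0.028, while *Id3* was above 0 on both axes (0.10 and 0.19).

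Whether the TVA difference itself depended on the siRNA was tested as an interaction, the log2 fold change between TVA and DMSO in siCreb1 cells minus that in siNTC cells. No factor was called, against 2.24% of all tested genes (0.459% called higher and 1.78% lower). With limma, 4 of 8 had an unadjusted p under 0.05, where 14.3% of all genes did. These were *Bcl6* (0.38 ± 0.13 (SE), adjusted p = 0.19), *Id2* (0.10 ± 0.03, adjusted p = 0.17), *Tcf7* (0.084 ± 0.030, adjusted p = 0.21) and *Lef1* (0.078 ± 0.033, adjusted p = 0.30). In limma a difference in the TVA response between the siRNAs was therefore not shown for any of the 8 factors. *Tcf7* was called with limma-voom on recovered reads (adjusted p = 0.040), but not with quantile normalization (adjusted p = 0.34) or TPM (adjusted p = 0.37). For *Tbx21* the interaction was -0.13, with a 95% interval from -0.41 to 0.15.

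Knockdown of *Creb1* without TVA was compared next, and it shares the siNTC libraries with the first comparison, so the values of both are given side by side and not correlated. Of 8 factors, 3 were called, all lower, against 13.7% of all tested genes (6.52% called higher and 7.21% lower) and 11.1% of the 692 tested transcription factor genes. *Tcf7* was at 712, 700 and 682 FPKM in siNTC libraries and at 644, 643 and 647 with siCreb1 (log2 fold change -0.11 ± 0.02 (SE), adjusted p = 0.0061). *Id2* was at 49.1, 47.6 and 47.7 FPKM and fell to 43.7, 43.0 and 45.2 (log2 fold change -0.13 ± 0.02 (SE), adjusted p = 0.0054). *Lef1* was at 46.8, 45.9 and 47.0 FPKM and fell to 44.2, 43.5 and 44.1 (log2 fold change -0.082 ± 0.023 (SE), adjusted p = 0.041). The groups of all 3 genes were apart, by falls of 7.7%, 8.7% and 5.7% in mean FPKM, so that genes associated with memory and with effector cells were both among them.

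These calls depended on the scaling. Rescaled to TPM (FPKM divided by its sum in each library), none of the 3 was called (log2 fold changes of -0.067 for *Tcf7*, -0.083 for *Id2* and -0.037 for *Lef1*), and the median over all tested genes moved to 0.043. That sum itself varied in make-up, as a single 57-base gene, *Gm23935*, held between 3.58% and 9.11% of it by library. The library size behind the FPKM was 0.987 to 0.999 times the recovered reads in siNTC libraries and 1.005 to 1.007 times with siCreb1. On recovered reads, limma-voom gave log2 fold changes of -0.095 for *Tcf7*, -0.11 for *Id2* and -0.065 for *Lef1*. The part of this offset in the calls was not tested. Quantile normalization left *Id2* alone called, with *Tcf7* at -0.030. With only the 6 libraries compared no factor was called, and *Lef1* was called in 2 of 11 alternatives that kept all replicates. Leaving out 1 library ended the call of *Lef1* in 10 of 12 cases (adjusted p of 0.031 to 0.12), those of every siNTC, siNTC plus TVA and siCreb1 library and of siCreb1 plus TVA replicate 1. Of the genes of at least 300 FPKM, 77.8% were lower with siCreb1 (median log2 fold change -0.059), and 7 of the 10 T cell markers were called lower. The part of this shift in the 3 calls was not tested.

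Among the other factors, *Bcl6* was at 1.36, 1.36 and 1.28 FPKM with siCreb1, below all siNTC libraries (log2 fold change -0.20 ± 0.09 (SE), adjusted p = 0.17). *Id3* (-0.15), *Tbx21* (0.16), *Eomes* (0.073) and *Bach2* (-0.020) overlapped between the groups and did not pass the test. Of 8 factors, 4 had groups that did not overlap, against 31.5% of all tested genes.

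With TVA present, no factor differed between siCreb1 and siNTC cells at the threshold, against 10.1% of all tested genes (4.64% called higher and 5.51% lower), and none had an unadjusted p under 0.05. *Tcf7* was -0.031 (95% interval -0.077 to 0.016), *Id2* -0.028 (-0.079 to 0.023) and *Lef1* -0.0038 (-0.055 to 0.048) in log2 fold change. *Bcl6* was at 1.20, 1.06 and 1.23 FPKM in siNTC plus TVA libraries and at 1.47, 1.21 and 1.67 in siCreb1 plus TVA libraries (log2 fold change 0.18, 95% interval -0.025 to 0.38). Of 8 factors, 3 had groups that did not overlap, against 31.8% of all tested genes.

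Averaged over both treatments, siCreb1 lowered *Tcf7* (log2 fold change -0.073 ± 0.015 (SE), adjusted p = 0.0070) and *Id2* (-0.078 ± 0.016, adjusted p = 0.0076), 2 of 8 against 20.5% of all tested genes (9.53% called higher and 11% lower). Without and with TVA the separate log2 fold changes were -0.11 and -0.031 for *Tcf7* and -0.13 and -0.028 for *Id2*. Under quantile normalization *Tcf7* was at 0.0074 in this average, and no factor was called. Averaged over both siRNAs, TVA lowered *Tcf7* (-0.070 ± 0.015 (SE), adjusted p = 0.021) and raised *Id2* (0.072 ± 0.016, adjusted p = 0.029), 2 of 8 against 5.55% (3.18% called higher and 2.37% lower). In siNTC and siCreb1 cells the separate log2 fold changes with TVA were -0.11 and -0.028 for *Tcf7* and 0.022 and 0.12 for *Id2*. Under quantile normalization *Tcf7* was at -0.026 in the average over both siRNAs (adjusted p = 0.49). Its call was also lost with TPM, with all genes above 0 and without a mean-variance trend. That of *Id2* was lost with TPM, without a trend and with a block for the replicate number (adjusted p = 0.060). *Id3* stood at 0.15 in that comparison (adjusted p = 0.14, limma) and was called in 1 of 10 alternative fits that kept all replicates (adjusted p = 0.039). Leaving out 1 library at a time gave between 0 and 2 calls there, with none left without siNTC plus TVA replicate 1 or 3 or siCreb1 plus TVA replicate 1 or 3.

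**Figure D3:**
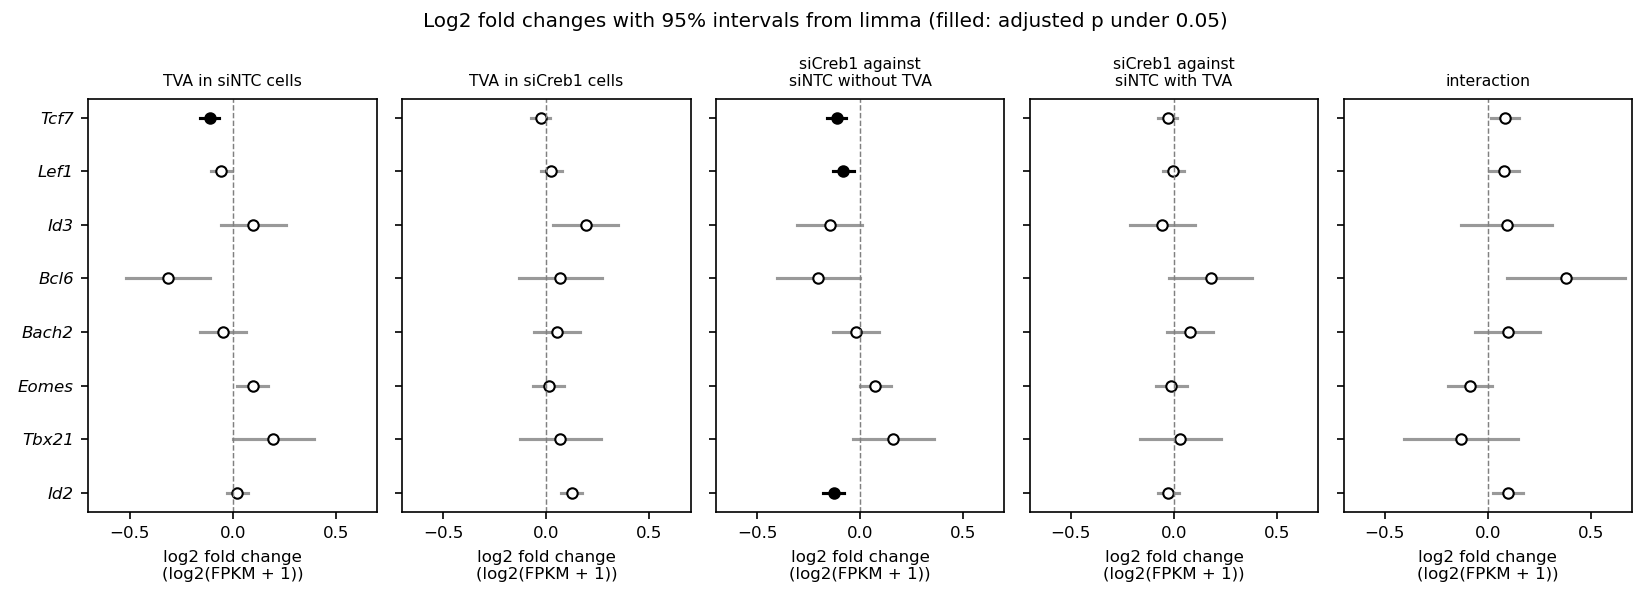
Log2 fold changes on log2(FPKM + 1) (horizontal axes) of the 8 tested factors in 4 comparisons and in the interaction, with 95% intervals from limma, where filled points passed an adjusted p of 0.05. *Tcf7* was called with TVA in siNTC cells, and *Tcf7*, *Id2* and *Lef1* with siCreb1 without TVA.

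*Zeb2* and *Prdm1* were too low for the filter. *Zeb2*, which is associated with effector differentiation, was at 0.457, 0.378 and 0.418 FPKM in siNTC libraries and at 0.361, 0.437 and 0.328 with TVA. It was at 0.204, 0.287 and 0.268 FPKM in siCreb1 libraries and at 0.249, 0.369 and 0.375 with both. The siCreb1 libraries lay below all siNTC libraries, but in a fit of all genes above 0 the log2 fold change was -0.18 ± 0.06 (SE) with an adjusted p of 0.16. On the recovered reads (85 to 184 per library), limma-voom put *Zeb2* at -0.71 (adjusted p = 0.046). *Prdm1* was at 0.135, 0.412 and 0.389 FPKM in siNTC libraries, and every other group overlapped that range (0.0969 to 0.294 FPKM). Differences of *Prdm1* were not detectable at this depth.

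Ratios between opposed factors within a library are given as a description, with no test. *Tcf7* was 47.2 ± 2.5 times *Tbx21* (SD, n = 3) in siNTC cells and 37.7 ± 2.6 times with TVA. It was 38.9 ± 5.2 times *Tbx21* with siCreb1 and 36.2 ± 3.0 times with both, so the siNTC ratios (44.5 to 49.5) lay above all but 1 of the other libraries. *Id3* was 0.479 ± 0.052 times *Id2* in siNTC cells, 0.507 ± 0.046 with TVA, 0.470 ± 0.006 with siCreb1 and 0.495 ± 0.023 with both, and these overlapped. *Eomes* was 1.72 to 1.92 times *Tbx21* in the group means.

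**Figure D4:**
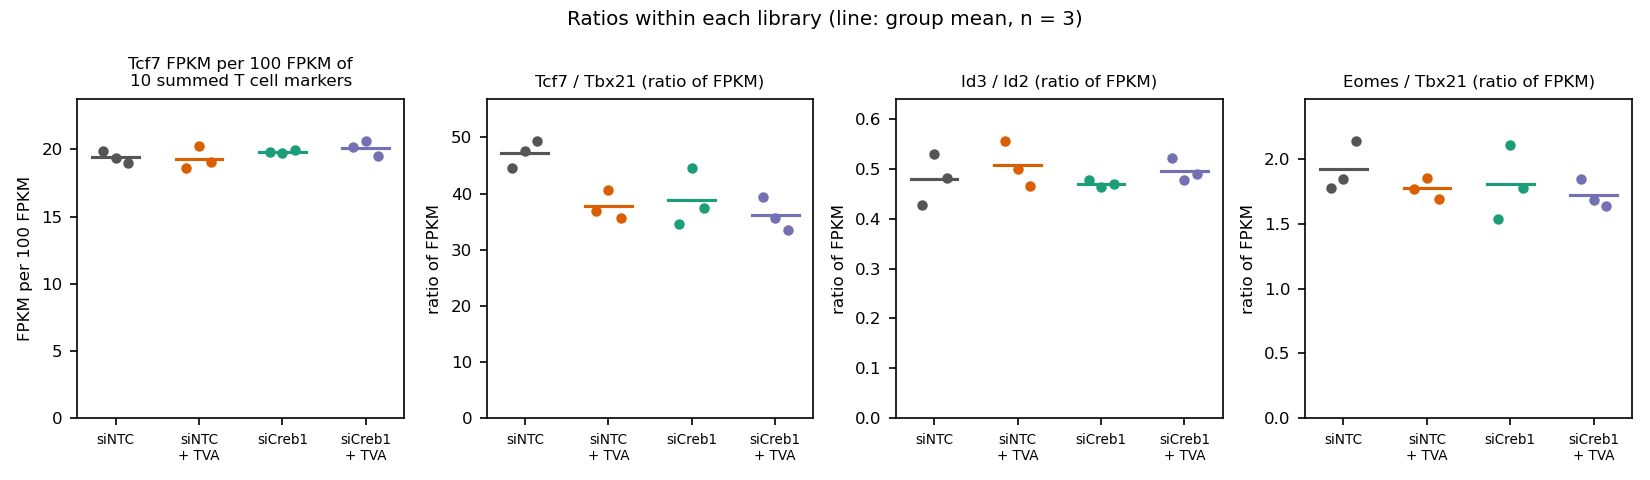
*Tcf7* per 100 FPKM of 10 summed T cell markers, and the ratios of *Tcf7* to *Tbx21*, *Id3* to *Id2* and *Eomes* to *Tbx21* (vertical axes, from 0) in each library by group, with lines for means of 3. *Tcf7* to *Tbx21* was 44.5 to 49.5 in siNTC libraries and 35.7 to 40.6 with TVA, while *Tcf7* per 100 FPKM of T cell markers lay between 18.6 and 20.7 in all 12 libraries.

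Naive and memory genes, effector genes, partner transcription factors and cofactors were described from 4 lists. These were drawn up from common knowledge, but with earlier results of these data known. Their shares of called genes beside those of all tested genes are thus a description and not independent evidence. Of 30 naive and memory genes, all tested, most were not called in either direction with TVA in siNTC cells, where 10 were called lower and 1 higher, against 2.88% and 4.49% of all tested genes, and the list's median log2 fold change was -0.052 against -0.0056 over all genes. *S1pr1*, the receptor that lets T cells leave lymphoid organs, fell from 198 ± 2 to 176 ± 1 FPKM (SD, n = 3), and *Evl*, *Actn1* and *Ltb* fell as well (log2 fold changes of -0.16, -0.15 and -0.15). With siCreb1 without TVA 12 were called lower and 3 higher, against 7.21% and 6.52% (median -0.10 against -0.0011), led by *S1pr1* (-0.45), *Actn1* (-0.31), the homing receptor *Ccr7* (-0.25) and the interleukin-7 receptor *Il7r* (-0.35). After knockdown TVA gave 1 called higher, *Rasgrp2* (0.17), and none lower, whereas siCreb1 against siNTC with TVA gave 8 lower and 1 higher, against 5.51% and 4.64% (median -0.0088 against -0.012).

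Of 38 effector genes 31 were tested. With TVA in siNTC cells 6 were called higher and 1 lower, against 4.49% and 2.88% of all tested genes (median 0.084 against -0.0056), with *Gzmb*, the cytotoxic protease granzyme B, rising from 72.4 ± 1.5 to 89.9 ± 3.7 FPKM (SD, n = 3), *Lgals1* and *Nkg7* rising by 0.33 and 0.11 in log2 and the chemokine *Ccl5* falling by 0.16. With siCreb1 without TVA 7 were called higher and 3 lower, against 6.52% and 7.21% (median 0.072 against -0.0011), with *Gzmb* at 0.43, *Il2ra* at 0.23, *Ctsw* at 0.15 and *Ccl5* at -0.18. After knockdown TVA gave 1 called lower, *Il2ra* (-0.28), and siCreb1 against siNTC with TVA gave 1 higher and 4 lower, against 4.64% and 5.51% (median -0.050 against -0.012).

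Partner transcription factors (41 of 45 tested) gave 2 called higher and 3 lower with TVA in siNTC cells, 12.2% against 7.38% of all tested genes (median -0.047 against -0.0056). *E2f2* (0.40) and its partner *Tfdp1* (0.25), which act in the cell cycle, rose, and *Myb* (-0.16) and *Satb1* (-0.097), of early T cells, fell. With siCreb1 without TVA 7 fell and 2 rose, 22.0% against 13.7%, at a median of -0.00095 against -0.0011. Among them was *Klf2*, an activator of *S1pr1*, which fell from 303 to 209 FPKM (log2 fold change -0.53 ± 0.06 (SE), adjusted p = 0.00035, limma), with *Klf3* (-0.29) and *Satb1* (-0.14), while *E2f2* rose (0.24). With TVA after knockdown none was called, and 4 were called higher and 1 lower with siCreb1 under TVA, 12.2% against 10.1% of all tested genes.

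Of 20 tested cofactors, 3 were called higher and 1 lower with TVA in siNTC cells, against 4.49% and 2.88% of all tested genes (median -0.024 against -0.0056). *Ezh2*, the histone methyltransferase of Polycomb (0.42), *Tbl1xr1*, a part of corepressor complexes (0.12), and *Cbfb*, the partner of RUNX proteins (0.10), rose, and *Tle4*, a corepressor of TCF-1 and LEF-1, fell (-0.18). With siCreb1 without TVA 2 rose and 2 fell, against 6.52% and 7.21% (median -0.012 against -0.0011). These were *Ezh2* (0.26) and *Tbl1xr1* (0.14), which rose, and *Tle1* (-0.25) and *Ctnnb1*, which encodes the coactivator β-catenin (-0.088), which fell. None was called with TVA after knockdown, and *Ctbp1*, a corepressor (-0.11), was lower with siCreb1 under TVA.

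**Figure D5:**
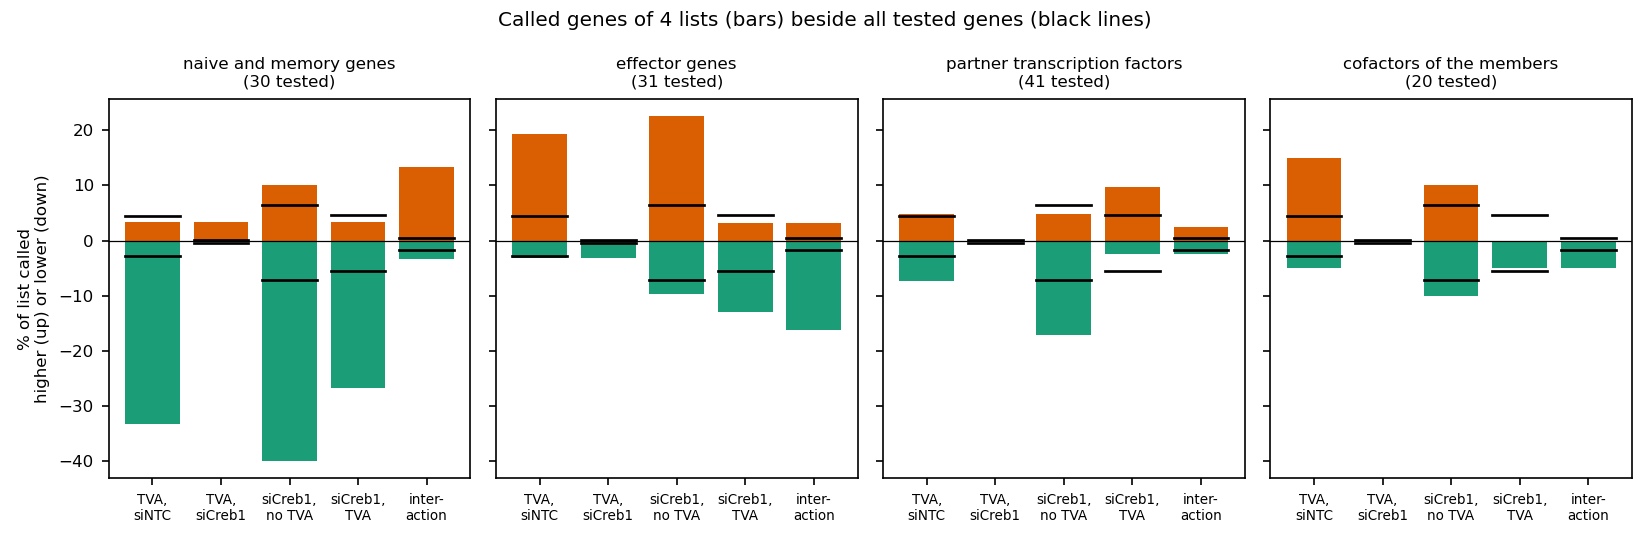
Percentage of the tested genes of each list called higher (orange, upwards) or lower (green, downwards) in 4 comparisons and the interaction, with black lines for all tested genes. Among naive and memory genes 10 of 30 were lower with TVA in siNTC cells and 12 of 30 with siCreb1 without TVA, where 2.88% and 7.21% of all genes were. The lists were chosen with earlier results of these data known.

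The genes whose levels followed each called factor most closely over the 12 libraries, which share their groups, are given as a description. For *Tcf7* they were *Tgfbr2*, a receptor for TGF-β (Pearson r = 0.962), the ribosomal protein gene *Rpl19* (r = 0.959) and *Togaram1* (r = 0.949). For *Id2* they were *Thbs1*, *Vwf* and *Gm8566* (r of 0.932, 0.925 and 0.922), and for *Lef1* they were *Vipr1*, *Akna* and *Lmbrd1* (r of 0.937, 0.928 and 0.917). *Rpl19* went from 1759 FPKM in siNTC cells to 1625 with TVA, 1595 with siCreb1 and 1551 with both, in the same order as *Tcf7* (698, 646, 645 and 632).

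Several factors share their span on the genome with other listed genes. *Bach2* (chr4:32238804-32586108, GRCm38, plus strand) holds the short sense intronic gene *Bach2it1*, at 8.23 to 12.5 FPKM but with 1194 reads over the 12 libraries together, and the antisense *Bach2os*, with 198 reads. *Tcf7* (chr11:52252371-52283014, minus strand) overlaps the antisense *A630014C17Rik*, at 2.87 to 4.22 FPKM, and *Eomes* (chr9:118478212-118486132, plus strand) the antisense *Gm33460*, at 2.46 to 4.68 FPKM. The sources used here do not say whether counting kept the strand, so reads of a gene and its antisense partner cannot be told apart.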

How the data were processed

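RNA-seq of 12 libraries (4 groups of 3, 24 h) was analysed from FPKM values, which the authors deposited as one table per library with Ensembl identifiers, positions and lengths. The aligner, counting program and strand setting are not given in the sources used here. The submitters' processing notes name GRCm38 and mm10. FPKM times length gave whole reads (within 0.02 reads) for at least 99.995% of genes above 0, and these reads served an alternative test. The library size implied by the FPKM, divided by the recovered reads, differed by group. It was 0.987 to 0.999 in siNTC libraries, 0.999 to 1.004 with TVA, 1.005 to 1.007 with siCreb1 and 1.013 to 1.017 with both.

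Genes with a mean of at least 1 FPKM (11550) entered limma 3.58.1 in R 4.3.3 as log2(FPKM + 1) (eBayes with trend, 1 coefficient per group), and p-values were adjusted by Benjamini-Hochberg over all of them at 0.05. Counts of called genes in lists are calls of that test. Alternatives were quantile normalization, TPM, other pseudocounts and filters, limma-voom, a replicate block and leaving out each library. The fit was tested on simulated data, where genes with few reads were often missed. The pass limit of that test was moved to genes with at least 300 expected reads after it had failed on all genes.

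Named genes were *Creb1*, the 10 factors, genes overlapping them, the 3 genes most correlated with each called factor, at most 4 called genes per list and comparison (those of smallest p) and defining markers. The factors and lists were chosen with earlier results of these data known. Classes by FPKM level and the ratio of *Tcf7* to T cell markers were added after seeing the data. Promoters were RefSeq windows. Replicate numbers come from the labels, and same-numbered libraries did not deviate together (correlations of -0.059 to 0.060), so no pairing was used. Replicate pairs differed by 3.74 to 5.74 times counting variance, and none was a duplicate.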

Additional observations from a re-analysis of the deposited data

Results flagged for a closer look

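None of the 8 tested factors differed in its TVA response between the siRNAs at the threshold in limma, but genes of the lists named above did. Of naive and memory genes 4 were called higher and 1 lower, of effector genes 1 and 5, of partner transcription factors 1 and 1, and of cofactors 0 and 1. As the lists were chosen with earlier results of these data known, these counts are a description. At most 4 of each list are described, those of smallest p. Each value is the log2 fold change with TVA in siCreb1 cells minus that in siNTC cells, tested as an interaction with limma and adjusted over all 11550 genes, where 2.24% were called. As siCreb1 without TVA also moved some of these genes, an interaction does not by itself show that a TVA response was lost. Mean FPKM is therefore given in the order siNTC, siNTC plus TVA, siCreb1 and siCreb1 plus TVA.

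Among naive and memory genes, *S1pr1* (0.22 ± 0.03 (SE), adjusted p = 0.0017), *Actn1* (0.23, adjusted p = 0.0042) and *Il7r* (0.28, adjusted p = 0.0090) fell with TVA in siNTC cells and had positive log2 fold changes of 0.056, 0.081 and 0.12 in siCreb1 cells, which did not pass the test there. *Cd44*, an adhesion receptor higher on activated cells, went the other way (-0.34, adjusted p = 0.020), from 0.23 in siNTC cells to -0.11 in siCreb1 cells.

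Among effector genes, *Gzmb* (-0.38, adjusted p = 0.0025), *Serpinb6b* (-0.43, adjusted p = 0.015) and *Lgals1* (-0.30, adjusted p = 0.032) rose with TVA in siNTC cells by 0.31, 0.26 and 0.33, and stood at -0.075, -0.17 and 0.034 in siCreb1 cells. *Il2ra* (-0.30, adjusted p = 0.0070) was at 0.024 in siNTC cells and fell by 0.28 in siCreb1 cells. Mean FPKM was 72.4, 89.9, 97.9 and 92.8 for *Gzmb*, and 6.30, 7.72, 7.51 and 6.56 for *Serpinb6b*. It was 226, 284, 242 and 248 for *Lgals1*, and 17.2, 17.5, 20.4 and 16.7 for *Il2ra*.

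Among partner factors and cofactors, *E2f2* (-0.30, adjusted p = 0.0025) and *Ezh2* (-0.29, adjusted p = 0.015) rose by 0.40 and 0.42 in siNTC cells and were at 0.096 and 0.14 in siCreb1 cells. *Myb* (0.21, adjusted p = 0.046) fell by 0.16 in siNTC cells and was at 0.048 in siCreb1 cells.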

How the results depend on the processing

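Of 1083 values of single factors under other settings, 985 kept their direction and side of the threshold, 59 lost a call, 12 gained one and 27 changed sign. The cause of these changes was not tested. The number of factors called with TVA in siNTC cells (1) became 0 with quantile normalization, all genes above 0 or only the 6 libraries compared, and 2 without a mean-variance trend or with limma-voom. With TVA in siCreb1 cells (0) it became 1 among genes of at least 5 FPKM and in both limma-voom fits, and 0 to 1 with a library left out. With siCreb1 without TVA (3) it became 1 with quantile normalization and 0 with TPM or only 6 libraries, and 2 to 3 with a library left out. *Lef1* also lost its call there with all genes above 0, without a trend, with a replicate block and in both limma-voom fits. The interaction (0) became 1 in both limma-voom fits. The averaged siCreb1 count (2) became 0 with quantile normalization or TPM and 1 in both limma-voom fits, and the averaged TVA count (2) became 1 with quantile normalization or all genes above 0, 0 with TPM or without a trend, and 0 to 2 with a library left out. *Id3* gained a call for averaged TVA in 1 of 10 alternatives that kept all replicates.

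Of the values that changed sign, 1 had been called, *Tcf7* for averaged siCreb1 (-0.073, adjusted p = 0.0070 with limma). With siCreb1 under TVA, quantile normalization gave 0.021 for *Eomes*, 0.045 for *Tcf7* and 0.037 for *Lef1*, and TPM gave 0.039 for *Eomes*, 0.024 for *Id2*, 0.022 for *Tcf7* and 0.048 for *Lef1*. Limma-voom gave 0.0049 for *Eomes* and 0.016 for *Lef1* there, and 0.0043 and 0.017 on all genes above 0. Quantile normalization put *Tcf7* at 0.012 with TVA in siCreb1 cells and at 0.0074 for averaged siCreb1, and TPM put *Bach2* at 0.025 with siCreb1 without TVA and *Lef1* at 0.0060 for averaged siCreb1. With a library left out, ranges that crossed 0 were -0.032 to 0.14 for *Tbx21* and -0.019 to 0.028 for *Eomes* with TVA in siCreb1 cells, -0.067 to 0.019 for *Bach2* with siCreb1 without TVA, and -0.016 to 0.090 for *Tbx21*, -0.11 to 0.012 for *Id3* and -0.025 to 0.0098 for *Lef1* with siCreb1 under TVA.

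With a block for the replicate number, *Lef1* with siCreb1 without TVA had an adjusted p of 0.078 and the averaged TVA count became 1, with *Id2* at 0.060. The block changed no other call of the 8 factors. The block with all genes above 0, added after seeing the data like limma-voom on all genes above 0, gave 0 factors with TVA in siNTC cells, 1 with siCreb1 without TVA, 1 for averaged siCreb1 and 0 for averaged TVA.

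The scaling also moved the calls over all genes. With siCreb1 without TVA 47.5% of the calls were higher, against 75.4% with TPM and 59.4% with limma-voom, and with siCreb1 under TVA 45.7%, against 83.8% with TPM, 64.0% with quantile normalization and 59.3% with limma-voom. With TVA in siNTC cells 60.9% were higher, against 72.3% with TPM. Few reads limit *Bcl6*, *Zeb2* and *Prdm1*.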

Other observations

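The shift of abundant genes was present in each of the 4 comparisons. Of the 153 genes of at least 300 FPKM, 79.7% were lower with TVA in siCreb1 cells (median log2 fold change -0.048) and 88.9% were lower with siCreb1 under TVA (median -0.079). A single 57-base gene, *Gm23935*, held between 3.58% and 9.11% of the summed FPKM of a library, which enters the rescaling to TPM.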
